A study of Mus musculus with 48 samples.

Results

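The 10 genes described here encode α-tubulin (Tuba1a, Tuba1b, Tuba1c and Tuba4a) and β-tubulin (Tubb2a, Tubb2b, Tubb3, Tubb4b, Tubb5 and Tubb6). They were chosen by symbol as genes whose mRNAs are under co-translational autoregulation, and all 10 were found among the 50600 genes of the count files by their Ensembl identifiers. All 10 were also among the 13889 genes that passed the filter on low counts. These genes and the gene lists below were chosen with earlier results of these data known. Their counts of calls beside the share of all genes are therefore a description. RNA was sequenced from mPDAC cells, a mouse pancreatic ductal adenocarcinoma line of mixed FVB/N x C57BL6 background. The labels give an age of 8-week-old and no animal or sex. N6L-treated cells had received 50 µM N6L, a pseudopeptide antagonist of the RNA-binding protein nucleolin, for 48 h, and non-treated cells had not. From each lysate, an aliquot gave the cytoplasmic RNA and the pooled heavy fractions of a sucrose gradient gave the polysomal RNA, both made after nuclei and mitochondria were spun out and with emetine present in every sample. Each treatment had 3 lysates, numbered 1, 2 and 4 for non-treated and 1, 2 and 3 for N6L, which gave 12 libraries in 4 groups of 3. All cultures were of 1 line, and nothing in the labels says that they were grown apart, so the p-values measure the spread between these samples, which may be technical.

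α- and β-tubulin form the heterodimers from which microtubules are built, and mammals make several isotypes of each from separate genes. Their mRNAs are known for a feedback on their own product. When soluble tubulin dimers are in excess, TTC5 recognises the nascent amino terminus of tubulin as it leaves the ribosome and, through SCAPER, recruits the CCR4-NOT deadenylase, so that tubulin mRNAs are degraded while they are being translated. The recognised start is methionine-arginine-glutamate-cysteine in α-tubulin and methionine-arginine-glutamate-isoleucine in β-tubulin. Because the feedback acts on mRNA at the ribosome, both the cytoplasmic level and the polysomal level of these mRNAs were of interest.

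The coding starts are shown because they carry the stretch that the feedback reads. In GRCm38, with transcripts from GENCODE vM21, each line gives the first 30 coding bases of a member from 5′ to 3′, and the capitals mark its first 4 codons.
Tuba1a: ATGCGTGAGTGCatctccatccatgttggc
Tuba1b: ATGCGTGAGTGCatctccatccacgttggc
Tuba1c: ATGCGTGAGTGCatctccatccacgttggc
Tuba4a: ATGCGCGAGTGCatttcagtccatgtgggg
Tubb2a: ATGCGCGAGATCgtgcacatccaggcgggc
Tubb2b: ATGCGAGAGATCgtgcacattcaggcgggc
Tubb3: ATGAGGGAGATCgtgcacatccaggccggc
Tubb4b: ATGAGGGAGATCgtgcacctgcaggctggg
Tubb5: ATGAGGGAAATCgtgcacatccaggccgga
The 30 bases of Tuba1b and Tuba1c are the same, and the capitals of Tuba1a are those of Tuba1b. Over the whole coding sequence, identity between α members lay between 84.8% and 98.3%, between β members from 80.2% to 96.5%, and between an α and a β member from 55.8% to 57.6%. All 10 genes have 4 exons in the transcript used here, and the transcripts are 1.60 to 2.84 kb long. Tuba1a, Tuba1b and Tuba1c lie close together on chromosome 15, at chr15:98949837-98953703, chr15:98931425-98934565 and chr15:99029891-99038110. Tubb2a (chr13:34074274-34078007) and Tubb2b (chr13:34126748-34130466) are neighbours on chromosome 13, and Tubb5 lies at chr17:35833921-35838306.

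This likeness bears on how far the counts can be split between genes. Of the 50-base windows of the Tuba1b transcript, 83.1% occur in the transcript of another gene, and the value was 75.5% for Tuba1a and 61.0% for Tuba1c. For Tubb2a it was 49.6% and for Tubb2b 39.3%, each mostly shared with the other. Tubb4b shared 55.5%, mainly with its pseudogene Tubb4b-ps1. Tuba4a shared 48.8%, nearly all with Stk16, which overlaps it on the opposite strand, and the libraries were stranded but the strand setting of the counting is not given. Tubb3 and Tubb6 shared none and Tubb5 0.115%. The levels of the Tuba1, Tubb2, Tubb4b and Tuba4a genes are therefore uncertain by an amount that depends on how reads with several matches were counted, while those of Tubb3, Tubb5 and Tubb6 are little affected.

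The libraries held 19519911 to 44972333 counts, and a member had between 170 and 78287 counts in a library. The cells carried the keratins of ductal epithelium (Krt8 at 2035.7 to 3356.4 CPM, reads scaled to library size, and Krt19 at 1108.4 to 2299.9), but the epithelial marker Epcam was at most at 0.301 CPM. Summed per library, the 5 fibroblast markers held 0.450 to 1.22 CPM, the 4 leukocyte markers 0.976 to 2.26 CPM, mostly Cd68, the 3 endothelial markers 0.271 to 1.03 CPM and the 4 neuronal markers 0.471 to 1.30 CPM. The 3 islet markers (Ins1, Ins2, Gcg) had no count. Of the 4 acinar markers, Cpa1 and Amy2a5 had none, Prss2 was at most at 0.0904 CPM, and Cela1 was at 27.6 to 82.7 CPM. Libraries also differed by transcript length. The median deviation of transcripts under 2 kb minus that of transcripts of 5 kb or more was -0.18, -0.17 and 0.37 (log2) in the non-treated cytoplasm and -0.88, -0.91 and -0.79 in the N6L cytoplasm. It was 0.32, 0.30 and 0.80 in the non-treated polysomes and -0.05, 0.21 and 1.03 in the N6L polysomes of cultures 1, 2 and 3. Since the tubulin transcripts are on the short side, each comparison was also made with an offset for length and GC content.

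Levels between genes were compared per length, as TMM-scaled CPM per kilobase of transcript. In the non-treated cytoplasm, Tubb5, the most widely made β isotype, stood first at 862 ± 141 CPM per kilobase (SD, n = 3). Tubb4b, the β isotype also used in cilia, followed at 349 ± 52.1, Tubb6 at 192 ± 40.8, Tuba1b at 182 ± 51.4 and Tuba4a at 148 ± 25.6. Lower down came Tuba1c at 76.7 ± 14.2, Tuba1a at 31.2 ± 2.81, Tubb2b at 25.5 ± 1.40, Tubb2a at 20.7 ± 2.47 and Tubb3, the isotype known from neurons, at 6.20 ± 2.71. Of these neighbours in the order, only Tubb6 with Tuba1b and Tuba1b with Tuba4a overlapped over the 3 cultures. The order was the same in the non-treated polysomes, where Tuba1a with Tubb2b and Tubb2b with Tubb2a overlapped as well. In the N6L cytoplasm Tuba1b (76.3 ± 10.5) stood below Tuba4a (99.4 ± 8.97), and their ranges did not overlap. The genes share sequence windows with other genes to unequal extents. The order can therefore depend on how reads with several matches were counted, and agreement between cultures does not settle it.

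**Figure D1:**
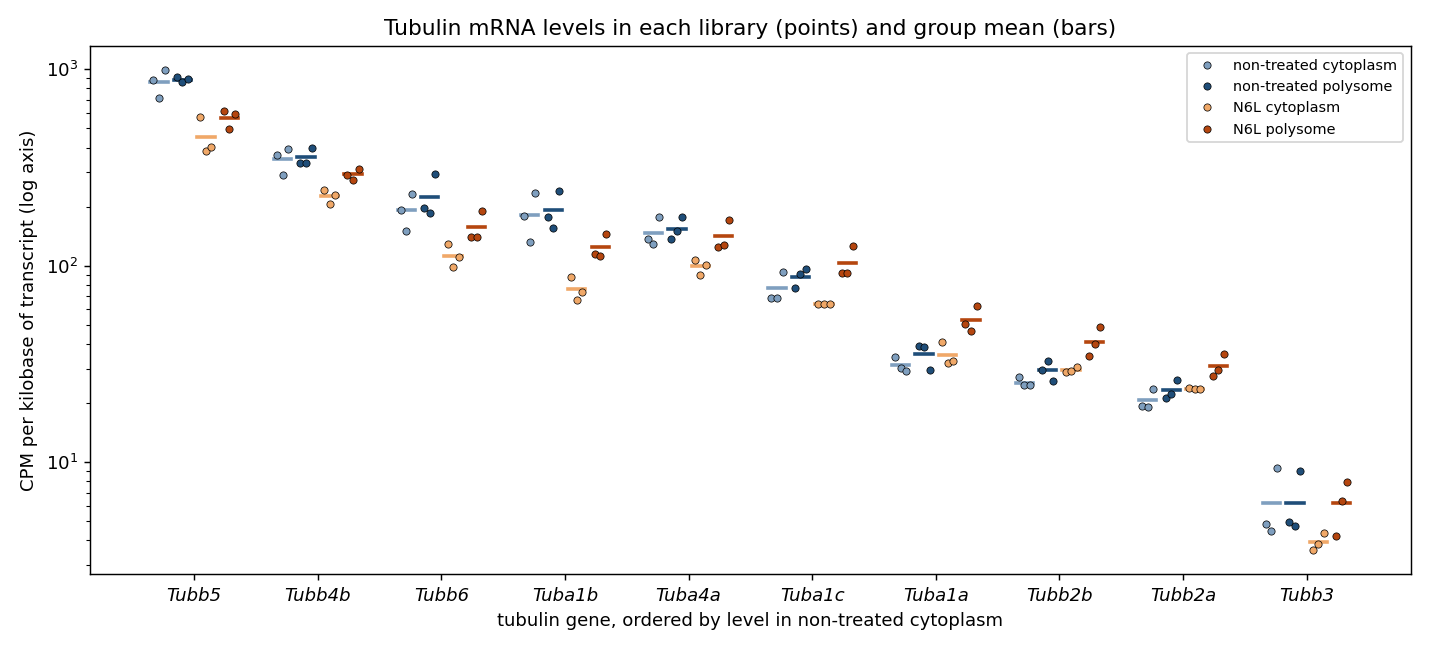
The level of each tubulin gene (x axis, ordered by level in non-treated cytoplasm) in CPM per kilobase of transcript on a log axis, with 1 point per library and a bar at the mean of each group of 3. The genes from Tubb5 to Tuba4a drop in the N6L cytoplasm (light orange) below the non-treated cytoplasm (light blue), while Tuba1a, Tubb2b and Tubb2a do not.

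The first question was how N6L changed the level of tubulin mRNA in the cytoplasm. The 5 members with the highest levels per length fell and no member rose. Tuba1b, a main α isotype of dividing cells, fell by 58.1%. Tubb5 fell by 47.6%, Tubb6 fell by 41.3%, Tubb4b fell by 35% and Tuba4a fell by 32.6%. The other 5 members did not pass the test, and for Tuba1a, Tubb2a and Tubb2b the estimate lay above 0. The 5 of 10 called lower stand beside 13.8% of all genes called lower in this comparison (edgeR's quasi-likelihood test, Benjamini-Hochberg FDR under 0.05 over all genes tested). The median log2 change of the members was -0.60, against 0.04 over all genes tested. In 9 of 10 members the CPM of the N6L cytoplasm and of the non-treated cytoplasm did not overlap, 7 of them lower and 2 higher after N6L, beside 54.9% of all genes that did not overlap. In these bulk libraries, fewer cells with a transcript and less of it in each cell cannot be told apart.

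Tuba1b stood at 314, 230 and 409 CPM in the cytoplasm of non-treated cultures 1, 2 and 4 and at 153, 117 and 128 CPM in that of N6L cultures 1, 2 and 3. Every N6L culture lay well below every non-treated one, and the log2 change was -1.26 ± 0.22 (SE, FDR = 0.00238). Tubb5 was at 2335.7, 1888.0 and 2629.9 CPM without N6L and at 1508.6, 1022.4 and 1063.2 CPM with it. Here too the groups were apart, with N6L culture 1 closest to the non-treated cultures, and the log2 change was -0.93 ± 0.18 (FDR = 0.00325). Since Tubb5 shares almost no sequence window with another gene, this value does not depend on the sharing of reads.

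Tubb6, a β isotype found in many cell types at low level, had 339, 264 and 407 CPM in the non-treated and 227, 173 and 194 CPM in the N6L cytoplasm (log2 change -0.77 ± 0.21, FDR = 0.0182). Tubb4b went from 583, 464 and 625 CPM to 387, 332 and 368 CPM (-0.62 ± 0.15, FDR = 0.0098). For Tuba4a, an α isotype also made in platelets, the values were 390, 365 and 502 CPM against 305, 255 and 287 CPM (-0.57 ± 0.18, FDR = 0.0277). In all 3 genes the lowest non-treated culture was number 2 and lay above the highest N6L culture, number 1. The calls of Tubb6 and Tuba4a were lost without non-treated culture 1 (FDR up to 0.0838 and 0.110 over the cultures left out in turn). That of Tuba4a was also lost without non-treated culture 4. Without N6L culture 2, the calls of Tubb6, Tuba4a and Tubb4b were lost (Tubb4b FDR = 0.0571). That fit left 2 of the 5 calls and called 9.24% of all genes.

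The 5 members of lower level did not pass the test in the cytoplasm, and their estimates lay on both sides of 0. Tuba1a, the α isotype best known from developing neurons, had 62, 54.2 and 52.5 CPM in the non-treated cytoplasm and 74.1, 57.4 and 59.4 CPM in the N6L cytoplasm, and the groups overlapped (log2 change 0.18 ± 0.17, FDR = 0.441). Tubb2b was at 59.1, 53.9 and 53.7 CPM without and at 62.7, 63.6 and 66.3 CPM with N6L, with no overlap but a small difference (0.21 ± 0.15, FDR = 0.313). Tubb2a, its close relative, had 31.2, 31 and 38 CPM against 38.3, 38.1 and 38.2 CPM (0.20 ± 0.15, FDR = 0.346). The N6L cultures of Tubb2a were within a narrow band just above the highest non-treated culture. Tuba1c had 136, 135 and 185 CPM without and 127, 126 and 127 CPM with N6L (-0.26 ± 0.17, FDR = 0.256). Tubb3 went from 9.04, 8.31 and 17.4 CPM to 6.67, 7.15 and 8.16 CPM (-0.65 ± 0.32, FDR = 0.132), where non-treated culture 4 alone carried a high value. The standard errors of Tuba1a, Tubb2a and Tubb2b were within the range of those of the members that fell (0.15 to 0.22).

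**Figure D2:**
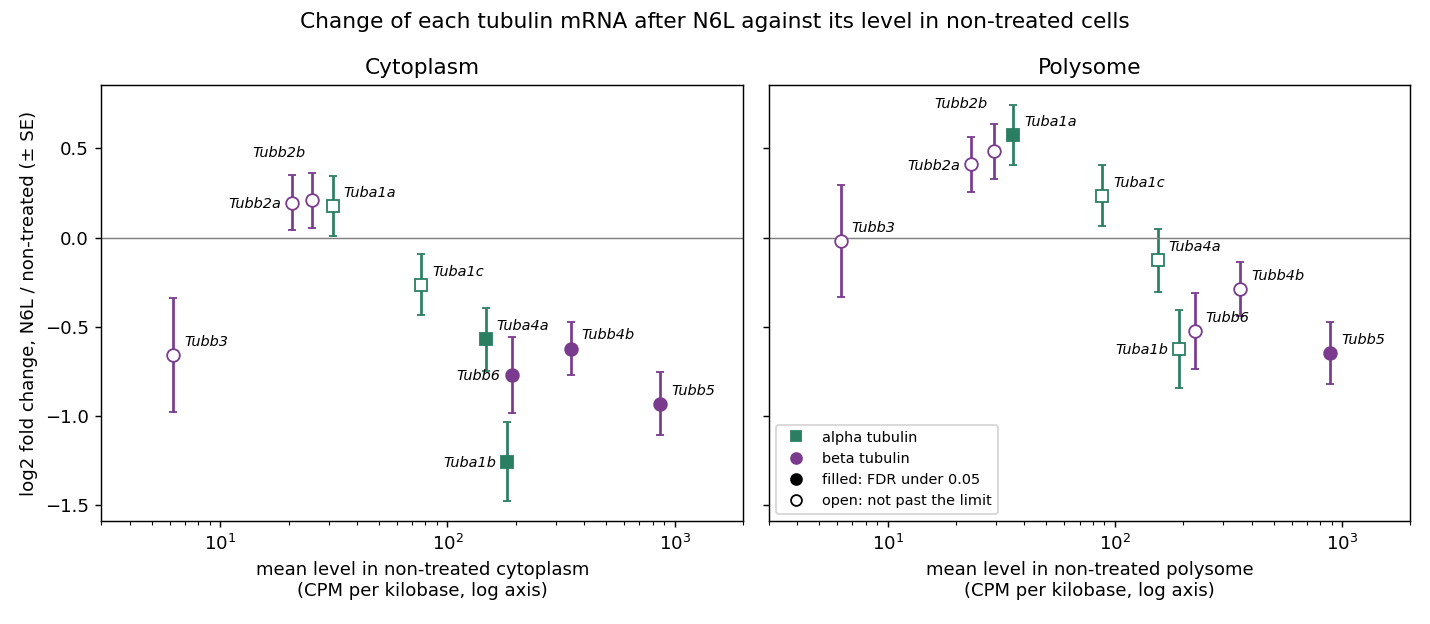
Log2 fold change after N6L with its standard error (y axis) against the mean level in the non-treated cells of the same fraction in CPM per kilobase (x axis, log), for the cytoplasm and the polysomes. Squares are α and circles β members, and filled symbols passed an FDR of 0.05. The 5 filled symbols of the cytoplasm are the 5 genes of highest level, and Tuba1a, Tubb2a and Tubb2b lie above 0 in both fractions.

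With the offset for length and GC content, 30% of all genes were called in the cytoplasm. The same 5 members were called lower and Tubb2a was called higher, and the changes ranged from -1.04 to 0.44. The median change of the members was -0.39 with the offset and -0.60 without it, and that of all genes was -0.04 with it. The reads of Tuba1a, Tuba1b and Tuba1c were also summed, so that their split among these genes does not matter. Their sum fell by 0.70 ± 0.18 on the log2 scale (FDR = 0.0133), and the sum of Tubb2a and Tubb2b gave 0.20 ± 0.14 (FDR = 0.281). A sum does not restore reads with several matches that the counting may have left out or given to other genes.

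The make-up of the tubulin pools was read within each library, which needs no scaling between libraries. Shares and pool sums can still depend on how reads with several matches were counted, which is not given. Of the α-tubulin counts per kilobase in the non-treated cytoplasm, Tuba1b made up 41.2% ± 3.88 (SD, n = 3), with 42.8%, 36.8% and 44.0% in cultures 1, 2 and 4. In the N6L cytoplasm it made up 29.2%, 26.7% and 27.1% in cultures 1, 2 and 3. The share of Tuba1b was thus lower in every N6L culture. Tuba1a went the other way, from 8.18%, 8.38% and 5.46% to 13.7%, 12.6% and 12.1%, and Tuba1c from 16.3%, 19% and 17.5% to 21.3%, 25.2% and 23.6%. Tuba4a kept overlapping shares, at 33.9% ± 1.72 and 36.2% ± 0.883. The log2 ratio of Tuba1b to Tuba1a counts, a pair picked after the values were seen, differed by -1.40 between N6L and non-treated in the cytoplasm and by -1.18 in the polysomes.

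In the β pool, Tubb5 made up 59.1%, 59.3% and 59.3% of the non-treated cytoplasm and 57.1%, 51.6% and 50.1% of the N6L cytoplasm. Its share was lower in each N6L culture, by least in culture 1. Tubb2a went from 1.44% ± 0.153 to 2.84% ± 0.404 and Tubb2b from 1.78% ± 0.295 to 3.52% ± 0.558, without overlap in either gene, though both stayed small parts of the pool. Shares of Tubb6 (13.1% ± 0.692 and 13.3% ± 0.458), Tubb4b (24% ± 0.569 and 26.9% ± 2.33) and Tubb3 (0.417% ± 0.124 and 0.472% ± 0.0998) overlapped between treatments. Shares are given as a description, with no test. Summed over the members, the α pool was at 438 ± 88.5 CPM per kilobase in the non-treated and 275 ± 24.2 in the N6L cytoplasm, 62.8% of the non-treated mean. The β pool was at 1455.1 ± 238 and 849 ± 131, 58.3% of the non-treated mean.

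**Figure D3:**
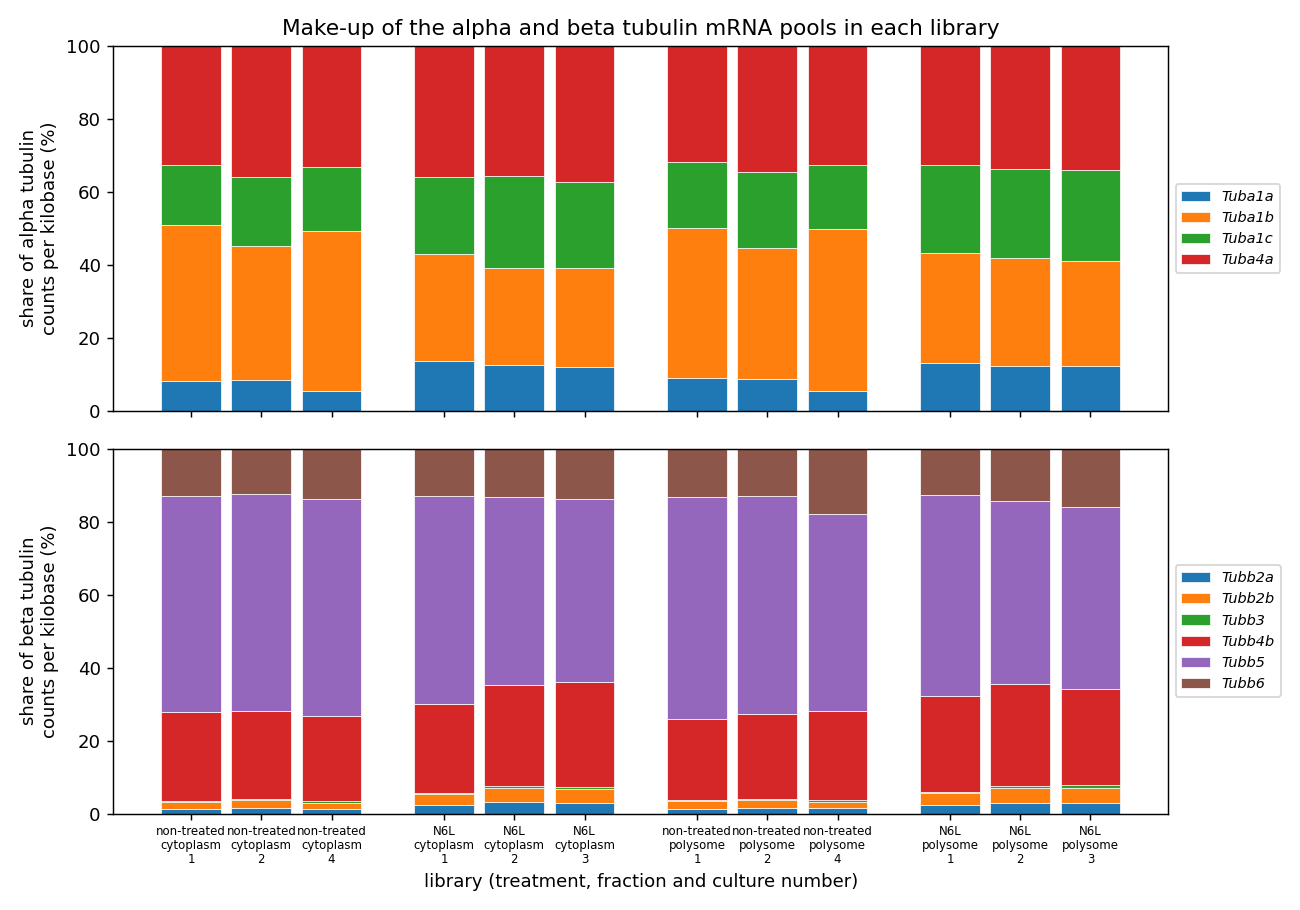
Stacked bars of the share (%) of each member in the counts per kilobase of the 4 α members (top) and of the 6 β members (bottom), 1 bar per library with treatment, fraction and culture number below it. The band of Tuba1b is narrower and those of Tuba1a and Tuba1c wider in all N6L libraries of both fractions, and the band of Tubb5 is narrower in the N6L cytoplasm.

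The second question was how the level of tubulin mRNA among the mRNA bound to polysomes changed. In both fractions CPM are relative to the library, so a change in the total mRNA of a fraction does not show in them. In the polysomes Tubb5 fell by 36.1% and Tuba1a rose by 49.1% on this scale, and the other 8 members did not pass the test. The 2 of 10 called compare with 9.67% of all genes called in this comparison. The median change of the members was -0.07 (log2), against 0.000807 over all genes. In 6 of 10 members the N6L polysomes and the non-treated polysomes did not overlap, 3 lower and 3 higher, against 25.6% of all genes.

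Tubb5 had 2409.4, 2279.1 and 2358.2 CPM in the non-treated polysomes and 1620.5, 1317.0 and 1566.0 CPM in the N6L polysomes (log2 change -0.65 ± 0.18, FDR = 0.0344). The 3 non-treated cultures were close to each other and far above the N6L cultures. Tuba1a was at 70.1, 69.6 and 53.4 CPM without and at 91.5, 84.2 and 112 CPM with N6L (0.58 ± 0.17, FDR = 0.0457). Both calls stood near the limit: the fit of only these 2 groups called no member (lowest FDR 0.0995), and neither gene was called without non-treated culture 1, 2 or 4 or N6L culture 2 or 3. The fit of only 2 groups called 2.46% of all genes, and the fits with those cultures left out called 1.04% to 7.77%. With the offset for length and GC content 6 members were called, beside 21.3% of all genes. Tubb5, Tuba1b and Tubb6 were lower and Tuba1a, Tubb2a and Tubb2b higher.

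Of the 8 members that were not called, 4 had groups that did not overlap. Tuba1b had 308, 271 and 420 CPM in the non-treated and 200, 196 and 253 CPM in the N6L polysomes, apart from each other (-0.62 ± 0.22, FDR = 0.0865). Tubb2b went from 64.3, 71.8 and 56.6 CPM to 76.0, 86.8 and 107 CPM, also apart and in the opposite direction (0.48 ± 0.15, FDR = 0.0614). Tubb2a lay at 34.2, 35.9 and 42.2 CPM and at 44.5, 47.8 and 57.2 CPM (0.41 ± 0.15, FDR = 0.104). Tubb4b was lower without overlap, at 533, 535 and 639 CPM and 463, 438 and 498 CPM (-0.29 ± 0.15, FDR = 0.239). The ranges overlapped for Tubb6 (-0.52 ± 0.21, FDR = 0.135), Tuba4a (-0.13 ± 0.17, FDR = 0.686), Tuba1c (0.23 ± 0.17, FDR = 0.411) and Tubb3 (-0.02 ± 0.32, FDR = 0.980). In the polysomal pools, Tuba1b made up 40.4% ± 4.34 of the α counts per kilobase without and 29.5% ± 0.686 with N6L, and Tuba1a 7.79% ± 2.03 and 12.6% ± 0.558. In CPM per kilobase, the α pool of the polysomal libraries was at 90.0% and the β pool at 71.6% of the non-treated mean.

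The third question was the level of each tubulin mRNA on polysomes relative to the cytoplasm, with each fraction scaled to its own library. The main fit and the overlap of CPM did not pair the 2 fractions of a lysate. A fit with the lysate as a block follows below. In non-treated cells the members lay between 0.02 and 0.23 on the log2 scale and 0 of 10 was called by edgeR, against 0.209% of all genes; none had an unadjusted p under 0.05 and DESeq2 called 0. In none of the 10 did the 2 fractions keep apart, while 22.4% of all genes did. In N6L-treated cells the estimate was above 0 for all 10 members, between 0.33 and 0.70, and 5 were called higher, against 18.4% of all genes. These were Tuba1c (0.70 ± 0.17, FDR = 0.00883), Tuba1b (0.70 ± 0.22, FDR = 0.0224), Tuba1a (0.59 ± 0.17, FDR = 0.0154), Tuba4a (0.51 ± 0.18, FDR = 0.0336) and Tubb2b (0.48 ± 0.15, FDR = 0.0239). All 4 α members and 1 of 6 β members thus passed. The estimates of the 2 families overlapped, with Tubb3 at 0.65 ± 0.32, and a difference between the families was not tested. Tuba1a, Tuba1b and Tuba1c also share sequence windows with each other. The 2 fractions of the N6L cultures did not overlap in 8 members, against 28.4% of all genes. The remaining β members had FDR values from 0.0598 for Tubb2a to 0.148 for Tubb5.

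The number of calls depended on the setting and on single cultures. With the lysate as a block, all 10 members were called in N6L-treated cells (FDR at most 0.0386), as were 53.7% of all genes. In non-treated cells the block called 0 of 10 members, beside 1.46% of all genes. With the offset for length and GC content 0 members were called in N6L-treated cells, beside 16.7% of all genes. The values fell to between -0.14 and 0.35. With the block and the offset, 1 member (Tuba4a) was called, beside 32.8% of all genes. The N6L polysome library of culture 3 had the largest length difference of all 12 libraries, 1.03, and N6L culture 3 also had the highest polysome-to-cytoplasm ratio for every member. Without N6L culture 3, and likewise without N6L culture 2, 0 members were called, with medians of 0.36 and 0.53. Of all genes, 11.7% and 8.22% were called in these 2 fits. Without non-treated culture 4 there were 9 members called, beside 41.8% of all genes. Whether the length difference accounts for the enrichment was not tested.

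The translational index (TI) sets the polysome-to-cytoplasm ratio of N6L-treated cells against that of non-treated cells. On the log2 scale it was above 0 in all 10 members, from 0.22 ± 0.22 for Tubb2a to 0.64 ± 0.45 for Tubb3, with Tuba1b at 0.63 ± 0.31 and Tuba1c at 0.50 ± 0.24. The test called 0 of 10 members (lowest FDR 0.555), as it called 0% of all genes. In this fit, which does not pair the fractions, none of the members had an unadjusted p under 0.05 (lowest 0.0586, for Tuba1b). Of all 13889 genes 1074 had, and DESeq2 called 0 members as well. With the lysate as a block 2996 genes had an unadjusted p under 0.05. The lowest FDR of a member was then 0.196, and 0 members were called. With the offset, the index of Tubb2a (-0.10) and Tubb6 (-0.08) was below 0.

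The ratios of single cultures give the values behind it. For Tuba1b the log2 polysome-to-cytoplasm ratio was -0.02, 0.24 and 0.04 in non-treated cultures 1, 2 and 4 and 0.39, 0.74 and 0.98 in N6L cultures 1, 2 and 3. Every N6L culture was above every non-treated one (mean 0.08 ± 0.14 and 0.70 ± 0.30, exact two-sided permutation p = 0.1). For Tubb5 it was 0.04, 0.27 and -0.16 against 0.10, 0.37 and 0.56, with overlap (exact permutation p = 0.2). Tubb6 was the least distinct, at 0.03, 0.30 and 0.34 against 0.11, 0.52 and 0.79 (exact permutation p = 0.4). The ratios did not overlap in 6 of the 10 members (Tuba1b, Tuba1c, Tuba4a, Tubb2a, Tubb3 and Tubb4b), each with a p of 0.1, which is the smallest that 3 cultures against 3 can give, beside 15.3% of all genes with N6L above non-treated. Among the N6L cultures, number 3 was highest and number 1 lowest in each member.

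**Figure D4:**
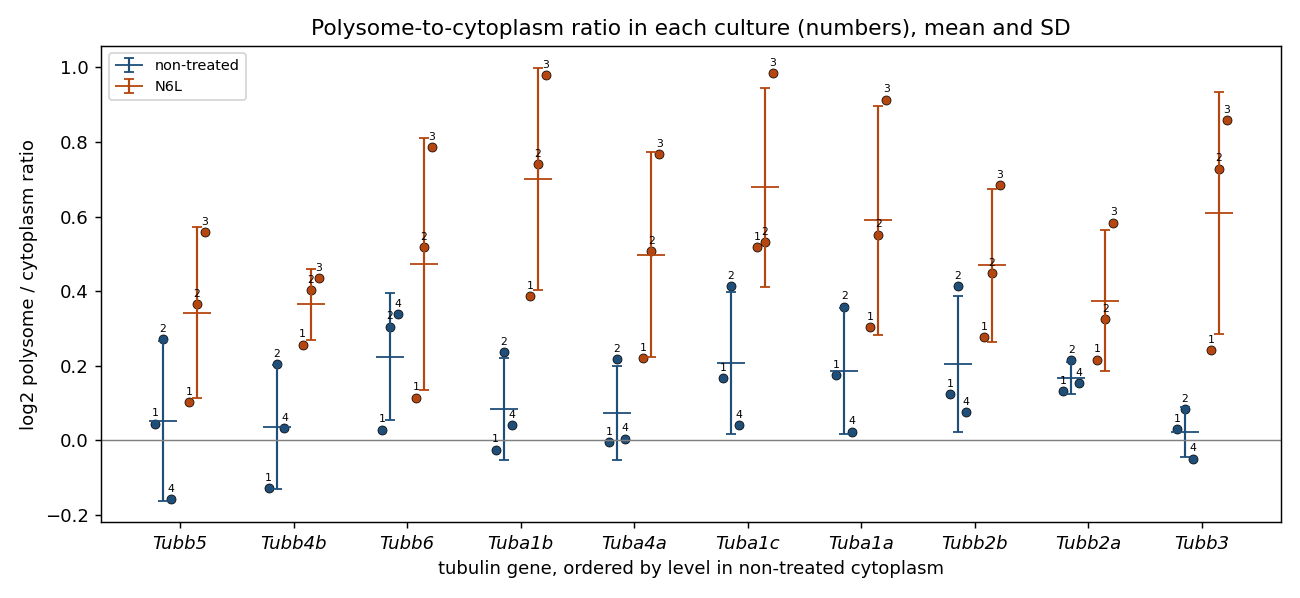
Log2 ratio of polysomal to cytoplasmic CPM (y axis) for each tubulin gene (x axis), with 1 point per culture labelled by its number, and the mean with its SD as a bar. Non-treated cultures (blue) lie from -0.16 to 0.41 and N6L cultures (orange) from 0.10 to 0.98, with N6L culture 3 at the top of every gene.

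The factors of the feedback were looked at next. Ttc5, which reads the nascent tubulin chain, stood at 34.8, 36.2 and 27.4 CPM in the non-treated cytoplasm and 35.7, 35.8 and 36.7 CPM in the N6L cytoplasm (log2 change 0.14 ± 0.17, FDR = 0.557). Scaper, the adaptor to the deadenylase, was at 7.60, 8.40 and 6.86 CPM and at 9.96, 14.1 and 13.6 CPM (0.72 ± 0.27, FDR = 0.0547), with the groups apart but the call missed. Over the alternatives its FDR lay between 0.00953 and 0.228: DESeq2 (0.0416), library totals (0.0412) and the culture number as a block (0.0311) were among those that called it, and with the length and GC offset the change was 0.29 (FDR = 0.228). In the polysomes the log2 changes were 0.44 ± 0.17 for Ttc5 (FDR = 0.112) and -0.37 ± 0.27 for Scaper (FDR = 0.420). In N6L-treated cells the polysomes held more Ttc5 than the cytoplasm (0.64 ± 0.17, FDR = 0.0111) and less Scaper (-1.49 ± 0.27, FDR = 0.0043). The call of Ttc5 was lost without N6L culture 2 (FDR = 0.078) and without N6L culture 3 (FDR = 0.0795). The difference in Scaper stood at -0.74 with the offset for length and GC content (FDR = 0.0153).

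Of the 13 autoregulation factors tested, which add 11 CCR4-NOT genes to Ttc5 and Scaper, 1 was called higher in the cytoplasm, against 14.5% of all genes called higher, and 0 lower. It was Cnot1, the scaffold of the complex (1.15 ± 0.24, FDR = 0.00516). In the polysomes 0 were called by edgeR or DESeq2, beside 9.67% and 14.6% of all genes, and 1 had an unadjusted p under 0.05. In N6L-treated cells 7 of the 13 were lower in polysomes than in cytoplasm, beside 20.6% of all genes, and 1 was higher. The transcripts of this list are longer than those of tubulin, 2.10 to 8.56 kb. With the offset 4 were lower and 2 higher, beside 974 and 1339 of 13889 genes.

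Newly made tubulin is folded by prefoldin, the CCT chaperonin and the tubulin-folding cofactors. Of the 13 prefoldin and cofactor genes, 8 fell in the N6L cytoplasm and 0 rose, with a median of -0.76 (log2), where 13.8% of all genes were called lower. Pfdn6 (-1.39 ± 0.29, FDR = 0.00476) and Pfdn1 (-1.14 ± 0.20, FDR = 0.00252) are prefoldin subunits, and Tbca (-1.02 ± 0.18, FDR = 0.00217) holds β-tubulin after its release from CCT. In the polysomes Pfdn1 (-0.75 ± 0.20, FDR = 0.0325) and Tbca (-0.59 ± 0.17, FDR = 0.0476) were lower, 2 of 13 against 9.67% of all genes called in either direction. Their transcripts are 0.559 to 5 kb long, and with the offset 7 were called lower in the cytoplasm, beside 2492 of 13889 genes. Leaving out single cultures left 6 to 8 calls, while 732 to 1893 genes were called lower. In N6L-treated cells 9 of the 13 were higher in polysomes than in cytoplasm (median 0.66), against 18.4% of all genes. That count was 3 with the offset, beside 1339 of 13889 genes called higher. It was 0 when N6L culture 2 was left out (359 of 14019 genes) and 2 when N6L culture 3 was (436 of 14088).

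Of the 8 CCT genes, each of which passed the filter, 3 fell in the cytoplasm, against 13.8% of all genes: Cct3 (-0.50 ± 0.14, FDR = 0.0205), Cct2 (-0.48 ± 0.14, FDR = 0.0191) and Cct7 (-0.39 ± 0.13, FDR = 0.0337). In the polysomes 4 did, where 9.67% of all genes were called in either direction, with Cct3 (-0.66 ± 0.14, FDR = 0.0137), Cct2 (-0.64 ± 0.14, FDR = 0.0115) and Cct6a (-0.59 ± 0.18, FDR = 0.0485) lowest. The polysome-to-cytoplasm median of the CCT genes in N6L-treated cells was -0.15, with 1 called lower, against 20.6% of all genes, and 0 higher. Differences between the lists were not tested. The cytoplasmic calls of CCT went to 0 when scaled by library totals alone, with no filter on low counts, without non-treated culture 2 or without N6L culture 2. All genes called were 28.4%, 17%, 22.4% and 9.24% in these 4 fits. The polysomal calls went to 0 without non-treated culture 1 (1.44% of all genes called), without N6L culture 2 (1.04%) and in the fit of only these 2 groups (2.46%).

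Among the 7 tested of 10 other tubulin genes, Tubb4a was called higher in both fractions. This β isotype, known from the brain, was at 12.3, 11.1 and 18.8 CPM in the non-treated and 25.9, 31.8 and 35.3 CPM in the N6L cytoplasm (1.15 ± 0.28, FDR = 0.00957). In the polysomes it was at 8.75, 10.1 and 17.7 CPM and at 25.6, 37.4 and 39.5 CPM (1.48 ± 0.28, FDR = 0.0065). Every N6L culture lay above every non-treated culture in both fractions. The call was lost in both fractions without N6L culture 2 (FDR = 0.0531 and 0.0574) and in the polysomes also without non-treated culture 1. The γ-tubulins Tubg1 (-0.92 ± 0.21, FDR = 0.00772) and Tubg2 (-0.91 ± 0.32, FDR = 0.046), which nucleate microtubules, fell in the cytoplasm.

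The remaining lists of the microtubule machinery had calls in both directions in the cytoplasm, where 13.8% of all genes were called lower and 14.5% higher. Of 8 genes of the γ-tubulin ring complex, Tubgcp5 (0.87 ± 0.28, FDR = 0.0328) and Tubgcp3 (0.49 ± 0.13, FDR = 0.0176) rose in the cytoplasm and Mzt2 fell (-0.60 ± 0.21, FDR = 0.0463). Of 16 stathmins, microtubule-associated and end-binding proteins tested, Clasp1, which stabilises plus ends, rose (0.81 ± 0.25, FDR = 0.0281) and Stmn1, which sequesters tubulin dimers, fell (-0.46 ± 0.16, FDR = 0.046). Of 22 tubulin-modifying and severing enzymes tested, 5 rose, among them the ligases Ttll6 (2.53 ± 0.69, FDR = 0.0163) and Ttll5 (0.86 ± 0.18, FDR = 0.00481) and the severing enzyme Fign (0.83 ± 0.29, FDR = 0.0465). Svbp, the partner of the detyrosinating enzymes, fell (-0.97 ± 0.30, FDR = 0.0275). The 1 call lower and 2 higher in the ring complex, 1 and 1 of 16, and 1 and 5 of 22 went to 0 and 0, 0 and 0, and 0 and 1 without N6L culture 2 and likewise without non-treated culture 4. Without non-treated culture 1 the ring complex had 0 calls, and without non-treated culture 2 the 16 genes had 0. In the cytoplasm 9.24% of all genes were called without N6L culture 2. The share was 15.5%, 16% and 22.4% without non-treated cultures 4, 1 and 2. With the length and GC offset 2 of the 22 enzymes were called higher, beside 1677 of 13889 genes. In the polysomes edgeR called 0 genes of these 3 lists, against 9.67% of all genes, with an unadjusted p under 0.05 in 0 of 8, 4 of 16 and 3 of 22. DESeq2 called 0, 3 and 1, all lower, beside 910 of 13889 genes called lower.

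In N6L-treated cells, 8 of the 16 stathmins and microtubule-associated proteins were lower in polysomes than in cytoplasm and 1 was higher (median -0.78), against 20.6% of all genes lower and 18.4% higher. Of the 22 enzymes 8 were lower and 3 higher (median -0.22), and of the 8 ring complex genes 3 were lower and 1 higher (median -0.27). With the length and GC offset the counts were 6 lower and 1 higher of the 16, and 0 in both directions of the 22 and of the 8. Of all 13889 genes, 974 were then lower and 1339 higher. Without N6L culture 2 the counts were 5 and 0 of the 16, 2 and 0 of 21 tested enzymes, and 0 and 1 of the 8. Of all 14019 genes tested there, 794 were lower and 359 higher. Without N6L culture 3 the counts were 6 and 0, 3 and 0, and 1 and 1, beside 1217 and 436 of 14088 genes.

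**Figure D5:**
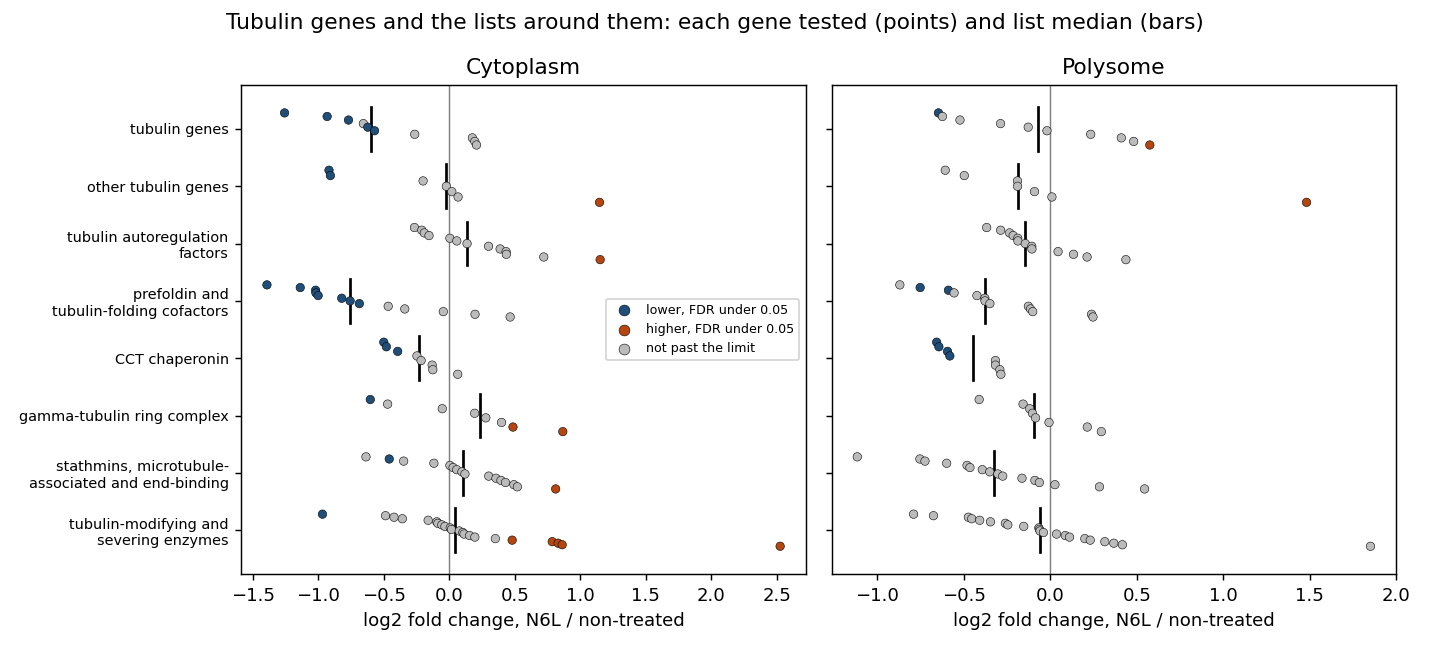
Log2 fold change after N6L (x axis) of each gene tested in the tubulin list and 7 lists around it (y axis), in the cytoplasm and in the polysomes, with a black bar at each list's median and blue or orange points for genes called lower or higher at an FDR under 0.05. In the cytoplasm the medians of the tubulin genes (-0.60) and of prefoldin and the cofactors (-0.76) lie furthest to the left, and the orange point of the other tubulin genes is Tubb4a.

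Genes whose pattern over the 12 libraries came nearest to the mean pattern of the 10 members were found among the 8949 whose mean reached 10 CPM. The measure was the root mean square difference of centred log2 CPM. They were Sharpin (0.06), Drg2 (0.07), Dhh (0.08), Scamp3 (0.08) and Fam220a (0.08). Dhh, at chr15:98891152-98898540, lies near the Tuba1 cluster. Of the members themselves, Tuba4a was nearest to their mean (0.07), and Tuba1a (0.37) and Tuba1b (0.36) were farthest from it.

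Promoters of 8 members were at hand in RefSeq (GRCm38.p6, 250 bases before to 50 after the start). The NF-Y motif CCAAT, searched on both strands, was in 5 of the 8 and in 37.4% of 32851 promoters of the same length. It was in Tubb5 and Tubb4b, which fell in the cytoplasm, and in Tuba1a, Tuba1c and Tubb3, which were not called there, but not in Tuba1b, Tuba4a or Tubb2a. GGGCGG, the GC box, was in 7 of the 8, against 35.7% of all promoters, and TATAAA in 2, against 13.6%. The 250 bases before the RefSeq start are printed for Tubb5 (chr17:35838302-35838551, minus strand) and Tuba1a (chr15:98953502-98953751, minus strand), since Tubb5 fell and Tuba1a rose in the polysomes. Capitals mark CCAAT or its reverse complement ATTGG.
Tubb5: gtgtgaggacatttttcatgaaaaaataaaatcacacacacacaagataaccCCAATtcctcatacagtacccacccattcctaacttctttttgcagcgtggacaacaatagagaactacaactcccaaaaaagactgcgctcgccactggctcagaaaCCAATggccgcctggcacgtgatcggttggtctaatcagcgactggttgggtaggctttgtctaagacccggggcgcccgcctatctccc
Tuba1a: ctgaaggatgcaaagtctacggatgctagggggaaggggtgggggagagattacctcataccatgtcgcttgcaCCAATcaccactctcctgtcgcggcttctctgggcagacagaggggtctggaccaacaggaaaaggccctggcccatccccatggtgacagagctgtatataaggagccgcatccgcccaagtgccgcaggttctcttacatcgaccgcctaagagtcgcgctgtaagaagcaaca
The window of Tubb5 held 2 CCAAT motifs and that of Tuba1a 1. The GENCODE transcript of Tuba1a used above begins further upstream, at chr15:98953703. Most of the printed Tuba1a window, with its CCAAT, thus lies inside that transcript. A match of letters is a description of the window and not a binding site.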

How the data were processed

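The authors aligned poly(A)-selected, stranded libraries and counted reads per gene. Per the submitters' processing notes, bcl2fastq 2.18.0.12, STAR, HTSeq 0.5.3 and the build mm10 were used, while the sources used here do not name the annotation release, the strand setting or the handling of reads with several matches. The deposited values are raw counts, not normalized, in 48 files, the 4 technical replicates of each of 12 libraries, and these were summed. For 3 technical replicates of the N6L cytoplasm of culture 2 the labels disagree on the culture number, the title was followed, and an alternative left them out. Symbols, coordinates and transcripts came from GENCODE vM21 (50376 of 50600 genes matched), and the longest protein-coding transcript gave the length.

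A quasi-likelihood model of edgeR (version 4.0.16, R 4.3.3; glmQLFit, then glmQLFTest) was fitted to the counts that passed filterByExpr, with TMM scaling and 1 mean for each group over all 12 libraries, with Benjamini-Hochberg adjustment over 13889 genes and a limit of 0.05. The SE is the log2 change divided by the root of its F value. CPM are TMM-scaled, and ratios per culture used a prior count of 2 and exact permutation tests (SciPy). DESeq2 1.42.0, other scalings and filters, an offset for length and GC content, blocks and left-out cultures were alternatives. The fit was tested on simulated data.

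Both fractions of a culture came from 1 lysate, so they are paired. Over genes, the departures of the 2 libraries from their group means had correlations of 0.364 (culture 1), 0.452 (2) and 0.645 (4) without N6L, and of 0.0368 (1), 0.199 (2) and 0.229 (3) with it. The members and the gene lists were chosen with earlier results of these data known. Named genes are the members, Ttc5 and Scaper, up to 3 called genes per list and direction, and the 5 nearest patterns.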

Additional observations from a re-analysis of the deposited data

How the results depend on the processing

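In the cytoplasm, 5 tubulin genes were called (all lower). The count lay between 5 and 6 under other scalings and filters, DESeq2 and the offset, while 17% to 33.1% of all genes were called. It lay between 2 and 5 with single cultures left out, beside 9.24% to 28.7% of all genes. In the polysomes, the count of 2 became 4 with library totals alone (10% of all genes called) and 4 with DESeq2 (14.6%). It became 6 with the length and GC offset (21.3%) and 0 with only the 2 groups compared (2.46%). With single cultures left out the count was 0 to 3 (1.04% to 11.2%). For polysome against cytoplasm in N6L-treated cells, 5 became 2 with library totals alone (35.1% of all genes called). The count became 3 with only the 2 groups compared (33.2%) and 0 with the length and GC offset (16.7%). With single cultures left out it was 0 to 9 (8.22% to 41.8%). The lysate as a replicate block gave 10 (53.7%), and 1 with the offset (32.8%). In non-treated cells and for the index, the count was 0 under every alternative, block included, by edgeR and DESeq2. Cultures 1 and 2 of both treatments share a number, and whether they share more is not given (correlations 0.228 and 0.0455 in the cytoplasm, 0.296 and 0.00756 in the polysomes). As a replicate block the number left 5 calls in the cytoplasm (34.1% of all genes called) and 1 in the polysomes (9.76%). Of the members' single values, 663 kept their side of the limit and direction, 45 lost and 26 gained a call, and 36 changed sign, none of them called. Polysomal Tubb3 was at 0.0717 with library totals, 0.20 with the number as a block, and -0.24 to 0.37 with single cultures left out. For polysome against cytoplasm without N6L, library totals, the offset, and the offset with the lysate block gave -0.0053, -0.12 and -0.11 for Tuba1b, -0.0065, -0.0125 and -0.0046 for Tuba4a, -0.0637, -0.16 and -0.15 for Tubb3, -0.0448, -0.18 and -0.18 for Tubb4b, and -0.0289, -0.0392 and -0.0270 for Tubb5. For Tubb2a the last 2 gave -0.0439 and -0.0436. With single cultures left out, the range was -0.0051 to 0.0284 for Tubb3, -0.0423 to 0.11 for Tubb4b and -0.0579 to 0.13 for Tubb5. With N6L, the offset without and with the block gave -0.14 and -0.15 for Tubb2a, -0.14 and -0.15 for Tubb4b, and -0.0436 and -0.0390 for Tubb6. The index was -0.10 and -0.10 for Tubb2a and -0.0815 and -0.0754 for Tubb6. The causes were not tested. Depth gave at least 170 counts per member and library, so 3 cultures per group, not counting, limit the precision.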
